A study of Danio rerio with 9 samples.

Results

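The endoplasmic reticulum (ER) is where a liver cell folds the proteins that it secretes, and the genes followed are those of its chaperones, disulfide enzymes, translocon, protein degradation machinery and stress sensors. The genes were taken as the rows of the count table whose gene name was 1 of 38 listed symbols. Of these, 34 were found, among 32520 genes in the table, and all 34 were among the 16766 genes that passed the filter on low counts. The other 4 were located in another way, eif2ak3, sil1 and edem3 under the same symbol in capitals and ern1 through a table of Ensembl names, and they are described beside the 34 but not counted with them.

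Livers were microdissected from wild-type zebrafish larvae that had spent 24 h in vehicle, in 1 mM metronidazole or in 10 mM metronidazole, and poly A RNA was sequenced in 3 libraries per group. Metronidazole is the prodrug that a bacterial nitroreductase converts into a toxin in transgenic cell ablation. All 3 groups were wild-type, with no nitroreductase transgene named in the labels, so the comparisons are between drug-treated and vehicle-treated wild-type larvae. Neither the larvae's age nor whether libraries held 1 animal or a pool is stated in the sources used here.

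Proteins that enter the ER pass through the Sec61 channel, fold with the help of the Hsp70 chaperone BiP and of lectin chaperones, and gain disulfide bonds from the protein disulfide isomerases. Proteins that fail to fold are drawn back out and degraded, a route known as ER-associated degradation. When unfolded protein accumulates, the sensors Ire1, Perk and Atf6 raise the genes of this machinery, the unfolded protein response, and hepatocytes depend on it because they secrete most plasma proteins.

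Total counts ranged from 29993109 to 41300673 per library. Summed levels of 10 hepatocyte markers were 142000 to 190000 CPM (counts relative to the scaled library size) over the 9 libraries. By edgeR 0 of the 10 passed in any comparison, while at 10 mM against vehicle 2 were higher and 1 lower at an unadjusted p under 0.05 and DESeq2 called 1 higher and 1 lower. Exocrine pancreas, whose cells are rich in ER, was present too, with 13 of 16 listed markers matched. These 13 summed to 10500, 8130 and 17400 CPM in vehicle, to 17900, 6050 and 12600 CPM at 1 mM and to 9380, 9810 and 19700 CPM at 10 mM, so the groups overlapped, and 0 of the 13 passed in any comparison by edgeR, by DESeq2 or at an unadjusted p under 0.05. Of 9 other marker lists, 2 had a gene that passed at 10 mM against vehicle, and their part in the results was not tested. By edgeR 1 of 5 macrophage genes tested was higher and 0 were lower. The 1 was marco, at 12.2 to 15.6 CPM in vehicle and 22.5 to 23.9 CPM at 10 mM. DESeq2 called 1 higher and 1 lower, as did edgeR at an unadjusted p under 0.05. The marker lcp1 stood at 9.97 to 11.9 CPM in vehicle and at 5.68 to 9.22 CPM at 10 mM. The list summed to 42.2 to 48.8 and 48.7 to 58.2 CPM. Of 6 stellate and mesenchyme genes tested 1 was higher. Their list summed to 49.1 to 62 CPM in vehicle and to 51.4, 57.6 and 122 CPM at 10 mM. In it col1a1a stood at 10.2, 10.7 and 51.5 CPM at 10 mM and col1a2 at 10.4, 9.74 and 37.6 CPM. In vehicle these 2 stood at 12.8 to 19.7 and 12.8 to 15.4 CPM. The marker pdgfrb stood at 8.54 to 11.1 CPM in vehicle and at 14.6 to 18.8 CPM at 10 mM. At 1 mM against vehicle 0 genes of these 2 lists passed by edgeR, by DESeq2 or at an unadjusted p under 0.05. DESeq2 called 1 erythrocyte gene higher at 1 mM against vehicle. At an unadjusted p under 0.05, 3 of 4 endocrine pancreas genes tested were lower at 1 mM, and 0 passed by edgeR or DESeq2. Their list summed to 3.15, 41.1 and 30.8 CPM in vehicle and to 9.92, 0.481 and 0.603 CPM at 1 mM. By the same unadjusted p, 2 erythrocyte genes were higher, and 1 neutrophil gene was higher and 1 lower. Between the doses, edgeR called 1 biliary, 1 endocrine pancreas and 1 macrophage gene higher at 10 mM than at 1 mM. It called 1 endothelium and 1 erythrocyte gene lower. The part of these genes in the results was not tested either. Along the second principal component, which held 17.4% of the variance, 1 mM replicate 3 stood apart at -76.8 against -5.99 to 26.6 in the others, and by the column names 10 mM replicate 3 alone was sequenced on lane 8.

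At 10 mM most of the 34 listed ER genes were higher than in vehicle. Of the 34 genes, 21 rose and 1 fell at an adjusted p under 0.05, where 9.74% of all tested genes rose and 7.43% fell. Their median log2 fold change was 0.52, beside -0.03 over all tested genes. The genes were chosen with earlier results of these data known, so these shares do not test them as a group. At 1 mM, 4 of the 34 rose and 0 fell by the edgeR test, where 0.889% of all tested genes rose and 0.0954% fell, so that 0.984% were called in all, and the median was 0.26 beside 0.01. DESeq2 gave 8 higher and 0 lower at 1 mM, beside 2.5% and 0.519% of all tested genes. At an unadjusted p under 0.05 edgeR gave 11 higher and 0 lower, beside 7.59% and 4.01%. Libraries were also left out 1 at a time. The count of 4 became 0 without any of the vehicle libraries or 1 mM replicate 2, and 8 without 1 mM replicate 1. Over all 3 groups at once, 20 of the 34 differed, against 19.6% of all tested genes. Counted without a test, the libraries of the groups did not overlap at 10 mM for 22 genes that were higher and 2 that were lower, beside 20.2% and 20.4% of all tested genes. At 1 mM this held for 10 that were higher and 0 that were lower, beside 9.66% and 8.03%. In bulk livers, fewer cells of a type and less RNA per cell cannot be told apart.

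The classes are given in turn. Of the 3 counted sensor and transcription factor genes (atf6, xbp1 and creb3l3a) 2 rose and 1 fell at 10 mM. The sensor kinase genes ern1 and eif2ak3, not counted, did not pass (adjusted p = 0.451 and 0.0699). Chaperones and co-chaperones had 11 of 12 members higher at 10 mM, with a median log2 change of 1.40. Of the 7 genes of ER-associated degradation 5 were higher, with a median of 0.45. Of the 4 disulfide enzymes 2 were higher, and of the 8 translocon genes 1, with medians of 0.67 and 0.13. Set against the 9.74% of all tested genes that were higher, the translocon share of 12.5% is close to that of genes at large. At 1 mM the chaperones had 3 of 12 members higher with a median of 0.86, the disulfide enzymes 1 of 4, and the translocon and degradation genes 0 of 8 and 0 of 7, with medians of 0.13 and 0.11. For the translocon and degradation genes DESeq2 and an unadjusted p under 0.05 also gave 0 at 1 mM. Of all tested genes 0.889% were higher at 1 mM by edgeR, 2.5% by DESeq2 and 7.59% at an unadjusted p under 0.05. In classes of 7 or 8 genes a count of 0 is near these shares. Of the 3 sensor and transcription factor genes 0 were higher at 1 mM by edgeR or DESeq2, and 1 at an unadjusted p under 0.05. The difference between classes was not tested. When each library was left out in turn, 9 to 11 chaperone genes and 2 disulfide genes were higher at 10 mM. The degradation genes were 1 or 2 without any vehicle library, 2 without 10 mM replicate 3, 3 without 10 mM replicate 1 or 2 or 1 mM replicate 2 and up to 6 otherwise. Without vehicle replicate 2, 13 of the 34 genes and 1 of the 3 sensor and transcription factor genes were higher at 10 mM. The count of 1 lower became 0 without any vehicle or 10 mM library or without 1 mM replicate 2.

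**Figure D1:**
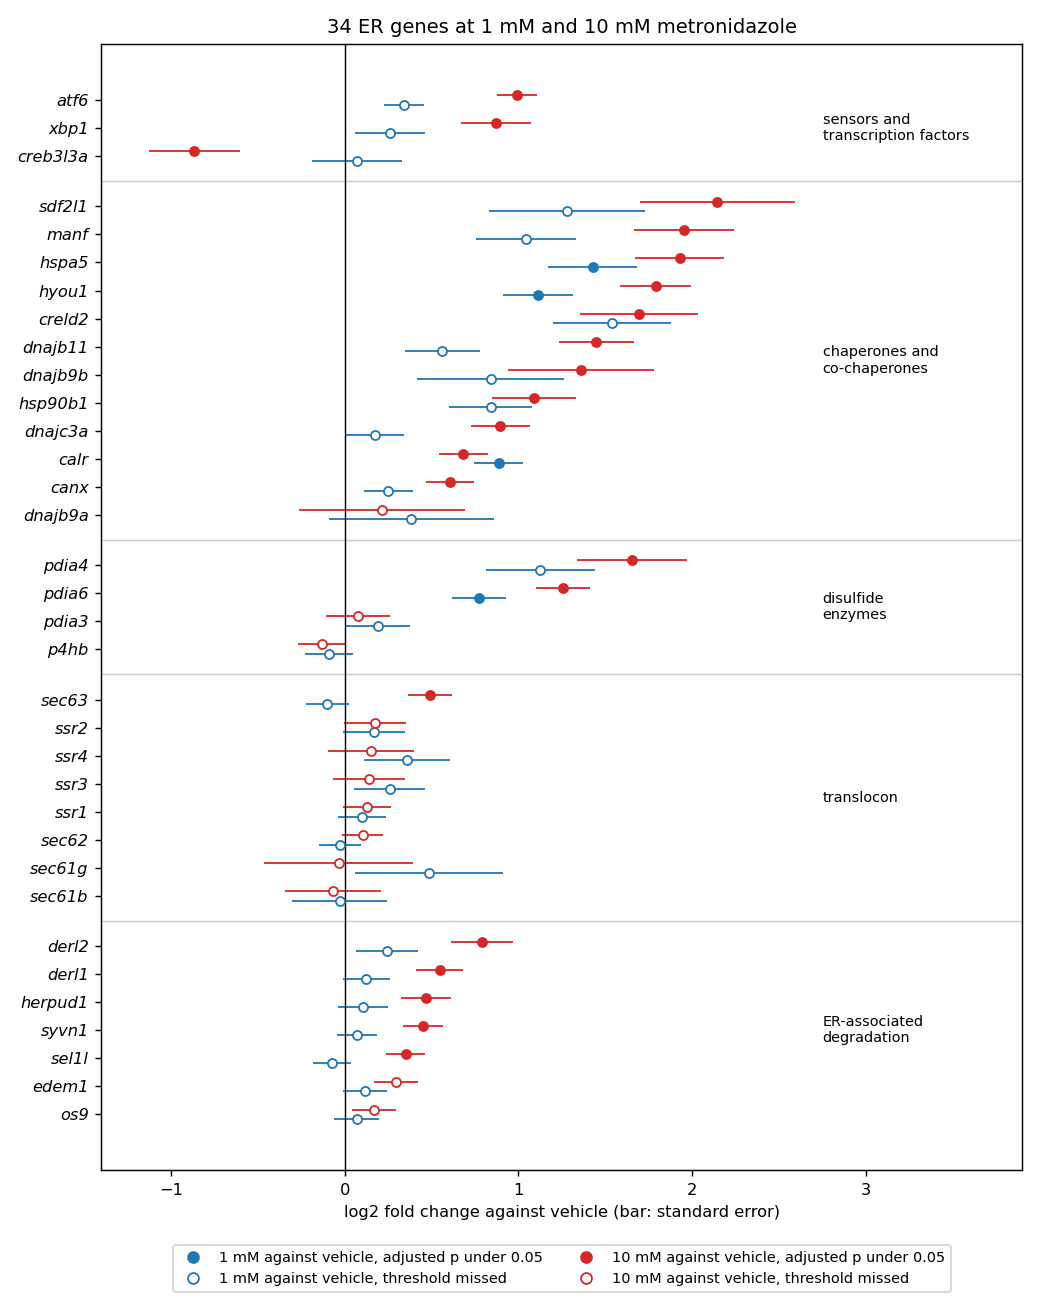
Log2 fold change against vehicle (horizontal axis) of the 34 genes, grouped by role, at 1 mM (blue) and 10 mM (red). Bars are standard errors and filled points passed an adjusted p of 0.05. The rightmost point at each dose is a chaperone, and 7 of the 8 translocon genes sit near 0 at 10 mM.

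Among the sensors, atf6 (ENSDARG00000012656), whose product is a membrane-bound transcription factor that is cut free under ER stress, rose at 10 mM. Its level was 33.0, 31.3 and 35.4 CPM in the vehicle libraries, 43.6, 42.4 and 40.3 CPM at 1 mM, and 62.5, 63.8 and 72.3 CPM at 10 mM. The 3 groups did not overlap, with 1 mM in between. At 10 mM atf6 was 1.99-fold above vehicle (adjusted p = 0.000106, log2 0.99, SE 0.11) and 1.57-fold above 1 mM (adjusted p = 0.00189, log2 0.65, SE 0.11), and both calls held in each of 17 alternatives. The difference between 1 mM and vehicle missed the threshold (adjusted p = 0.226, log2 0.34, SE 0.11).

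The transcription factor gene xbp1 (ENSDARG00000035622), whose mRNA Ire1 splices into its active form, also rose at 10 mM. It stood at 133, 132 and 148 CPM in vehicle, at 106, 175 and 214 CPM at 1 mM and at 233, 270 and 254 CPM at 10 mM. All 10 mM libraries lay above all others, and the 1 mM libraries spread from below the vehicle range to near the 10 mM range. The rise at 10 mM was 1.83-fold (adjusted p = 0.0101, log2 0.87, SE 0.20). Without vehicle replicate 2 the adjusted p was 0.0507, the highest of 17 alternatives, of which the lowest was 8.68e-05. From 1 mM to 10 mM the difference missed the threshold (adjusted p = 0.0534, log2 0.61, SE 0.20). It passed in 6 of 17 alternatives, over which the adjusted p ranged from 0.0036 to 0.126. Gene counts do not separate spliced from unspliced xbp1.

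The 1 gene that fell was creb3l3a (ENSDARG00000056226), which encodes a liver-enriched bZIP factor held in the ER membrane. Its level was 46.3, 48.6 and 43.0 CPM in vehicle, 70.8, 47.5 and 26.3 CPM at 1 mM and 25.9, 21.3 and 28.5 CPM at 10 mM. The 10 mM libraries lay below all vehicle libraries, and 1 mM replicate 3 fell among them. The log2 change at 10 mM was -0.87 (SE 0.26, adjusted p = 0.0389). It missed the threshold without any vehicle library, any 10 mM library or 1 mM replicate 2 (adjusted p 0.054 to 0.138), the lowest of 17 alternatives being 0.000282. The copy creb3l3b, one of the further ER genes and chosen after its values were seen, did not pass at 10 mM (log2 -0.18, SE 0.12, adjusted p = 0.357). Its vehicle and 10 mM libraries overlapped. At 1 mM creb3l3b did not pass either (log2 -0.37, SE 0.12, adjusted p = 0.212).

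The genes of the sensor kinases themselves did not pass. Perk, which slows translation, is encoded by eif2ak3 (EIF2AK3 in the table, ENSDARG00000062139), at 14.4, 14.9 and 14.2 CPM in vehicle, 20.95, 17.7 and 13.6 CPM at 1 mM and 18.7, 20.75 and 19.25 CPM at 10 mM. The 10 mM libraries lay above all vehicle libraries, and the log2 difference of 0.43 (SE 0.15) missed the threshold (adjusted p = 0.0699). It passed under DESeq2 (0.0479), with only the 6 libraries compared (0.00897), without 1 mM replicate 1 (0.0378) or replicate 3 (0.00847), and over 17 alternatives the adjusted p reached 0.185. Ire1 is encoded by ern1 (ENSDARG00000013997), at 21.4, 20.7 and 24.6 CPM in vehicle, 18.7, 19.8 and 16.4 CPM at 1 mM and 23.2, 14.2 and 20.2 CPM at 10 mM. Its log2 difference at 10 mM was -0.21 (SE 0.17, adjusted p = 0.451).

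**Figure D2:**
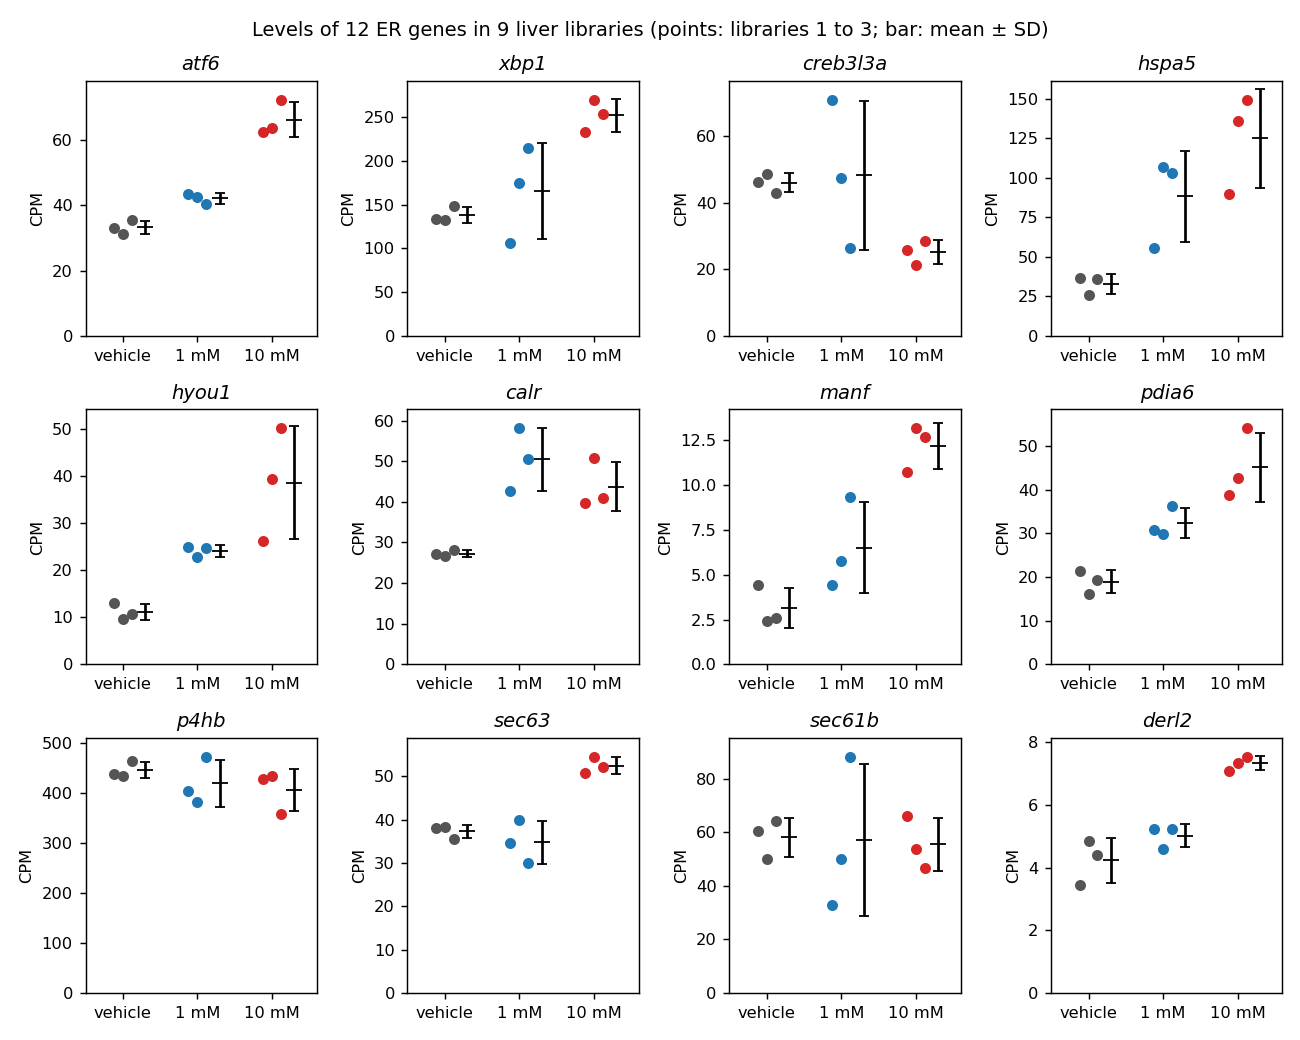
CPM (vertical axis, from 0) of 12 genes in the 3 vehicle (grey), 3 1 mM (blue) and 3 10 mM libraries (red), with mean and SD as bars. All 10 mM points of atf6, xbp1, hspa5, hyou1, calr, manf, pdia6, sec63 and derl2 lie above the vehicle points, creb3l3a lies below them, and p4hb and sec61b did not pass the test.

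BiP, the ER Hsp70 that holds unfolded chains and keeps the sensors quiet, is encoded by hspa5 (ENSDARG00000103846), and it rose at both doses. Its level was 36.6, 25.7 and 36.3 CPM in vehicle, 55.4, 107 and 103 CPM at 1 mM and 89.6, 136 and 149 CPM at 10 mM. All treated libraries lay above all vehicle libraries, and the doses overlapped. The rise was 3.80-fold at 10 mM (adjusted p = 0.000292, log2 1.93, SE 0.26) and 2.69-fold at 1 mM (adjusted p = 0.0226, log2 1.43, SE 0.25). The difference between the doses missed the threshold (adjusted p = 0.197, log2 0.50, SE 0.25).

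The partner of BiP that exchanges its nucleotide, Grp170, is encoded by hyou1 (ENSDARG00000013670). It stood at 13.01, 9.68 and 10.7 CPM in vehicle, at 24.8, 22.7 and 24.6 CPM at 1 mM and at 26.1, 39.3 and 50.05 CPM at 10 mM. The 3 groups did not overlap, with little spread at 1 mM and a wide one at 10 mM. Its rise was 3.46-fold at 10 mM (adjusted p = 0.000101, log2 1.79, SE 0.21), 2.16-fold at 1 mM (adjusted p = 0.0236, log2 1.11, SE 0.20) and 1.60-fold from 1 mM to 10 mM (adjusted p = 0.0322, log2 0.68, SE 0.20). The last call was lost with only the 6 libraries compared and without 1 mM replicate 1 or 2 or 10 mM replicate 2 or 3, at adjusted p of 0.0536 to 0.154.

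The lectin chaperone calreticulin, calr (ENSDARG00000076290), which binds newly made glycoproteins in the lumen, reached its higher mean at the lower dose. Its level was 27.05, 26.6 and 28.1 CPM in vehicle, 42.6, 58.1 and 50.6 CPM at 1 mM and 39.7, 50.7 and 40.9 CPM at 10 mM. Treated libraries all lay above vehicle and the doses overlapped. The log2 change was 0.89 at 1 mM (SE 0.14, adjusted p = 0.0162) and 0.68 at 10 mM (SE 0.14, adjusted p = 0.00519), and between the doses the difference missed the threshold (adjusted p = 0.361). Calnexin, canx (ENSDARG00000037488), its membrane-bound counterpart, rose at 10 mM (86.0 ± 9.50 to 131 ± 9.08 CPM, SD, n = 3 each, adjusted p = 0.00933, log2 0.60, SE 0.14). Leaving out vehicle replicate 2 ended the calnexin call (adjusted p = 0.062, the highest of 17 alternatives, with the lowest 0.000445).

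The gene of Manf, a small BiP-binding protein that is also secreted, manf (ENSDARG00000063177), rose at 10 mM. It stood at 4.44, 2.42 and 2.59 CPM in vehicle, at 4.44, 5.75 and 9.33 CPM at 1 mM and at 10.7, 13.1 and 12.7 CPM at 10 mM. The 10 mM libraries lay above all others, and 1 mM replicate 1 was level with the highest vehicle library. The rise at 10 mM was 3.87-fold (adjusted p = 0.000562, log2 1.95, SE 0.29).

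The J-domain co-chaperone ERdj3, which passes substrates to BiP, is encoded by dnajb11 (ENSDARG00000015088). It stood at 6.87, 5.67 and 5.60 CPM in vehicle, at 6.83, 7.75 and 12.25 CPM at 1 mM and at 13.6, 18.1 and 17.9 CPM at 10 mM. All 10 mM libraries were above all 1 mM libraries, whose highest was replicate 3. Its rise over vehicle at 10 mM was 2.73-fold (adjusted p = 0.000624, log2 1.45, SE 0.22).

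Of the other chaperone genes, sdf2l1 (ENSDARG00000035631), a partner of ERdj3, had the highest log2 change of the 34 genes at 10 mM (2.14, SE 0.45, adjusted p = 0.00538), from 1.40 ± 0.225 to 6.23 ± 1.58 CPM. Its 1 mM libraries stood at 1.38, 2.49 and 6.44 CPM, replicate 3 being the highest. Creld2, an ER protein induced by ER stress, rose at 10 mM (creld2, ENSDARG00000029071, 1.01 ± 0.188 to 3.28 ± 0.458 CPM, adjusted p = 0.00418, log2 1.69, SE 0.34). Grp94, the ER Hsp90, rose too (hsp90b1, ENSDARG00000003570, 66.1 ± 16.1 to 141 ± 34.4 CPM, adjusted p = 0.00718, log2 1.09, SE 0.24). The co-chaperone p58IPK gene dnajc3a (ENSDARG00000041110) went from 23.1 ± 2.18 to 43.0 ± 2.43 CPM (adjusted p = 0.0027, log2 0.90, SE 0.17).

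Both copies of the ERdj4 gene, a co-chaperone of BiP and of ER-associated degradation, were low, with 17 to 76 reads per library for dnajb9b (ENSDARG00000016886) and 19 to 56 for dnajb9a (ENSDARG00000052072). At 10 mM dnajb9b passed narrowly (0.694 ± 0.330 to 1.79 ± 0.684 CPM, adjusted p = 0.0422, log2 1.36, SE 0.42), with overlap between the groups, and dnajb9a did not (adjusted p = 0.813, log2 0.22, SE 0.48). The dnajb9b call was lost without vehicle replicate 2 or 3, without 1 mM replicate 2 and without 10 mM replicate 2 or 3, at adjusted p of 0.0575 to 0.153, with 0.012 the lowest of 16 alternatives. The BiP exchange factor gene sil1 (SIL1 in the table, ENSDARG00000100564) stood at 4.58 ± 0.604 CPM in vehicle and 7.37 ± 0.741 CPM at 10 mM (adjusted p = 0.0659, log2 0.69, SE 0.24). It passed under DESeq2 (0.0362), with no count filter (0.0321), with only the 6 libraries compared (0.00928) and without 1 mM replicate 3 (0.00644), with 0.215 the highest.

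At 1 mM the rises of hspa5, hyou1 and calr, with that of pdia6 described next, were the 4 that passed. Each was lost without any vehicle library or without 1 mM replicate 2 (adjusted p 0.0623 to 0.218), pdia6 also without the third 1 mM library (0.0548) or the second 10 mM library (0.0582) and with only the 6 libraries compared (0.055). Over 17 alternatives the lowest adjusted p was 1.97e-06, 3.7e-05, 1.03e-05 and 0.00156 in the order named. Further chaperone and disulfide genes did not pass. The log2 difference of creld2 at 1 mM was 1.54 (SE 0.34, adjusted p = 0.0557), that of manf 1.05 (SE 0.29, adjusted p = 0.131), that of pdia4 1.13 (SE 0.31, adjusted p = 0.137) and that of hsp90b1 0.84 (SE 0.24, adjusted p = 0.145). All 4 of these passed under DESeq2 (0.0023 to 0.0318) and with no count filter (0.000734 to 0.00682), and over their alternatives the adjusted p reached 0.236 to 0.498.

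The first 1 mM library had the lowest chaperone levels of the 3 by their median. Over the 12 chaperone genes, the median log2 difference from the vehicle mean was 0.44, 0.97 and 1.06 in the 1 mM libraries and 0.99, 1.58 and 1.65 in the 10 mM libraries, against -0.19 to 0.15 in vehicle. The exocrine pancreas markers were highest in 1 mM replicate 1 among the 1 mM libraries. There hspa5 was lowest and hyou1 highest of these libraries, hyou1 at 24.8 CPM against 22.7 and 24.6 CPM. Among the 10 mM libraries the pancreas markers were highest in replicate 3, where hspa5 and hyou1 were highest. The part of the pancreas markers in these values was not tested.

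**Figure D3:**
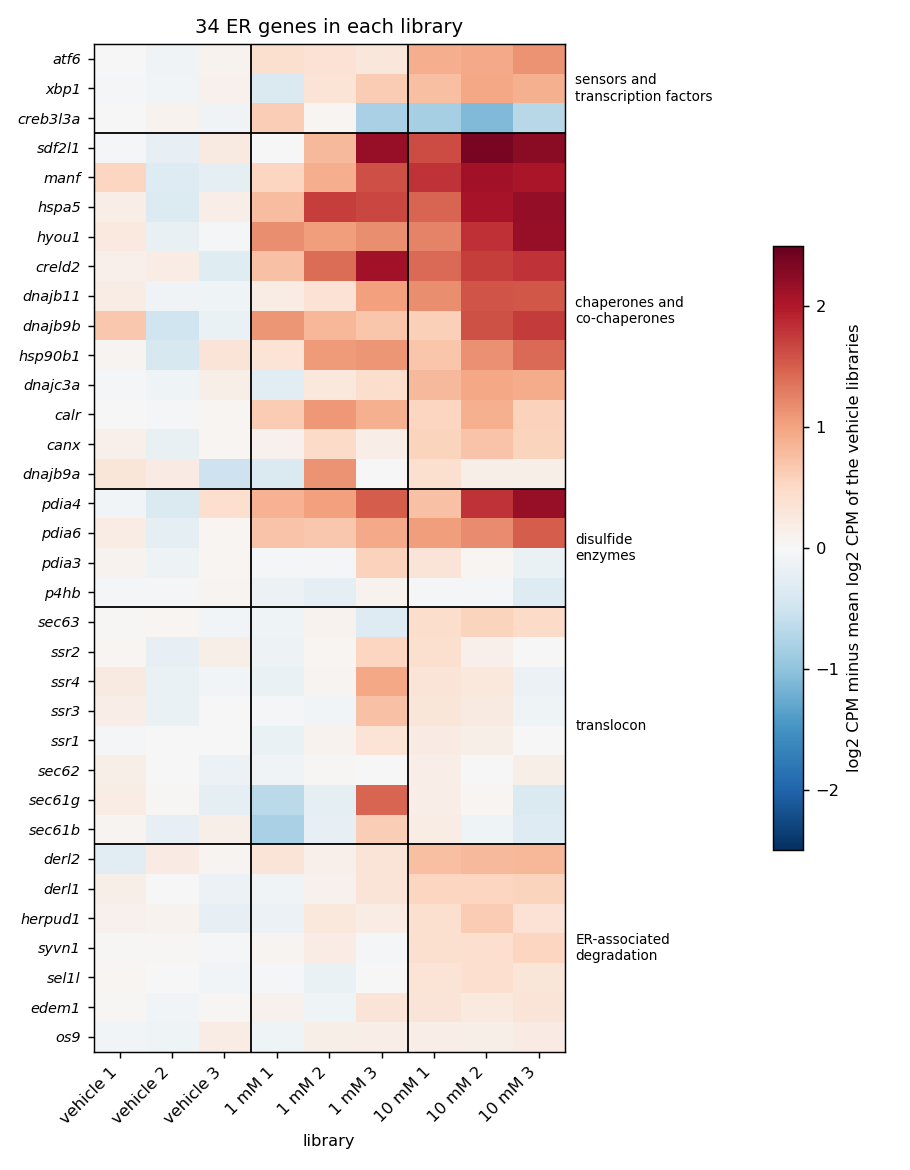
Log2 CPM of each gene in each library minus the mean of the vehicle libraries (colour, with 0.05 CPM added before the log), for the 34 genes (rows, by role) and 9 libraries (columns). Most chaperone rows are red in the 1 mM and 10 mM columns, degradation rows lightly so at 10 mM, and most translocon rows are pale at 10 mM and red in 1 mM replicate 3.

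The 4 disulfide enzymes fell into 2 pairs. Erp72, encoded by pdia4 (ENSDARG00000018491), stood at 12.98, 10.5 and 18.3 CPM in vehicle, at 24.8, 27.6 and 38.9 CPM at 1 mM and at 22.5, 47.3 and 61.7 CPM at 10 mM. Its treated libraries all lay above vehicle, and 10 mM replicate 1 was below all 1 mM libraries. At 10 mM it rose 3.14-fold (adjusted p = 0.0031, log2 1.65, SE 0.32). The isomerase P5, which also acts on the sensors, is encoded by pdia6 (ENSDARG00000009001), at 21.3, 16.1 and 19.3 CPM in vehicle, 30.7, 29.9 and 36.2 CPM at 1 mM and 38.8, 42.6 and 54.04 CPM at 10 mM. The 3 groups did not overlap. Its rise was 2.39-fold at 10 mM (adjusted p = 0.000179, log2 1.26, SE 0.16) and 1.71-fold at 1 mM (adjusted p = 0.0392, log2 0.77, SE 0.16).

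The other pair did not pass. Erp57, the partner of calnexin and calreticulin, is encoded by pdia3 (ENSDARG00000102640), at 185, 159.5 and 179 CPM in vehicle, 168, 169.9 and 261 CPM at 1 mM and 216.5, 181 and 155 CPM at 10 mM. The groups overlapped, and the log2 difference at 10 mM was 0.08 (SE 0.18, adjusted p = 0.828), turning to -0.06 without 10 mM replicate 1. Protein disulfide isomerase itself, which is also a subunit of the lipid transfer protein that loads lipoproteins, is encoded by p4hb (ENSDARG00000105116), at 438, 434.5 and 465 CPM in vehicle, 404, 381 and 472 CPM at 1 mM and 428, 433.5 and 358 CPM at 10 mM. Its 10 mM libraries all lay below the vehicle libraries, by little in 2 of them and by more in replicate 3, and the log2 difference was -0.13 (SE 0.14, adjusted p = 0.571).

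In the translocon, sec63 (ENSDARG00000017740) was the 1 member of 8 that rose. Sec63 carries a J domain that brings BiP to the channel. Its level was 38.01, 38.4 and 35.5 CPM in vehicle, 34.7, 39.9 and 29.9 CPM at 1 mM and 50.8, 54.5 and 52.1 CPM at 10 mM. The 10 mM libraries lay above all others. The rise was 1.41-fold over vehicle (adjusted p = 0.016, log2 0.49, SE 0.12) and 1.51-fold over 1 mM (adjusted p = 0.00591, log2 0.59, SE 0.13). The call against vehicle was lost without vehicle replicate 1, 2 or 3 (adjusted p 0.055, 0.0542 and 0.0765), with 0.00211 the lowest of 17 alternatives, and the call against 1 mM held in each of 17.

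The other translocon genes did not pass in any comparison. Sec62, which works beside Sec63 (sec62, ENSDARG00000019951), stood at 108, 98.8 and 88.02 CPM in vehicle, at 92.2, 100 and 97.3 CPM at 1 mM and at 110.5, 98.3 and 108 CPM at 10 mM (log2 at 10 mM 0.10, SE 0.12). The translocon-associated protein subunit gene ssr1 (ENSDARG00000101627) stood at 111, 114 and 114 CPM in vehicle, at 100.3, 120 and 144 CPM at 1 mM and at 131, 126 and 115 CPM at 10 mM (log2 at 10 mM 0.13, SE 0.14). A second subunit gene, ssr2 (ENSDARG00000005230), stood at 116, 96.7 and 124 CPM in vehicle, at 102, 115 and 161 CPM at 1 mM and at 147, 121 and 111 CPM at 10 mM (log2 at 10 mM 0.17, SE 0.18). Vehicle and 10 mM overlapped for sec62 and ssr2, and for ssr1 the 10 mM libraries lay just above vehicle.

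For the remaining subunit genes the log2 difference at 10 mM was 0.14 (SE 0.20) for ssr3, 0.15 (SE 0.25) for ssr4, -0.07 (SE 0.27) for sec61b and -0.03 (SE 0.43) for sec61g, the Sec61 genes encoding the small subunits of the Sec61 channel. In 1 mM replicate 3 several of these stood out. There sec61g was at 13.4 CPM against 3.02 and 4.13 CPM in the other 1 mM libraries, ssr4 at 126 against 57.7 and 67.8 CPM and sec61b at 88.2 against 32.8 and 50.2 CPM. The median log2 difference of the 8 translocon genes from the vehicle mean was 0.57 in this library and -0.15 and 0.04 in the other 1 mM libraries. This is the library that stood apart on the second principal component over all genes.

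Of the degradation genes 5 of 7 rose at 10 mM, and the largest of their log2 changes was 0.79. Derlin 2, a membrane protein of the export channel, is encoded by derl2 (ENSDARG00000042401), at 3.45, 4.84 and 4.41 CPM in vehicle, 5.24, 4.58 and 5.24 CPM at 1 mM and 7.08, 7.35 and 7.53 CPM at 10 mM. Its 10 mM libraries lay above all others and close together. The rise over vehicle was 1.73-fold (adjusted p = 0.00802, log2 0.79, SE 0.18), and it held in each of 17 alternatives.

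Derlin 1, derl1 (ENSDARG00000021905), stood at 22.1, 20.01 and 18.03 CPM in vehicle, at 18.7, 21.7 and 25.2 CPM at 1 mM and at 29.04, 29.2 and 29.6 CPM at 10 mM. The rise at 10 mM was 1.46-fold (adjusted p = 0.0141, log2 0.55, SE 0.14). The ubiquitin ligase Hrd1 at the centre of the channel is encoded by syvn1 (ENSDARG00000017842), at 20.43, 20.45 and 19.25 CPM in vehicle, 20.95, 22.6 and 19.65 CPM at 1 mM and 26.45, 26.8 and 29.1 CPM at 10 mM. Both genes had all 10 mM libraries above all others, and the rise of syvn1 was 1.37-fold (adjusted p = 0.0157, log2 0.45, SE 0.11). The derl1 call was lost without vehicle replicate 2 or 3 (adjusted p 0.0588 and 0.0775, lowest of 17 alternatives 0.00219), and the syvn1 call without any of the vehicle libraries or 10 mM replicate 3 (0.0551 to 0.0761, lowest 0.00243).

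The scaffold gene herpud1 (ENSDARG00000024314), which gathers Hrd1 complexes, stood at 34.5, 34.1 and 27.8 CPM in vehicle, at 28.99, 38.3 and 36.5 CPM at 1 mM and at 42.25, 49.9 and 41.3 CPM at 10 mM, all 10 mM libraries above all others. Its log2 change at 10 mM was 0.47 (SE 0.14, adjusted p = 0.0408). The Hrd1 adaptor gene sel1l (ENSDARG00000004581) went from 27.1 ± 1.07 to 34.6 ± 1.54 CPM (adjusted p = 0.0456, log2 0.35, SE 0.11). Both calls were close to the threshold. Each was lost without any of the vehicle libraries, any of the 10 mM libraries or 1 mM replicate 2, that of sel1l also with no count filter (adjusted p 0.0503 to 0.176), and the lowest of 17 alternatives were 0.0125 and 0.0142.

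The mannosidase-like gene edem3 (EDEM3 in the table, ENSDARG00000074129), whose product trims the sugars of proteins bound for degradation, stood at 21.1, 19.0 and 15.6 CPM in vehicle, at 20.95, 19.1 and 16.15 CPM at 1 mM and at 32.55, 34.9 and 33.4 CPM at 10 mM. Vehicle and 1 mM covered nearly the same range and 10 mM lay above both. The rise was 1.81-fold over vehicle (adjusted p = 0.00121, log2 0.86, SE 0.14) and 1.79-fold over 1 mM (adjusted p = 0.00153, log2 0.84, SE 0.14), in each of 17 alternatives. Its relative edem1 (ENSDARG00000025094) stood at 23.95 ± 0.958 CPM in vehicle and 29.4 ± 0.857 CPM at 10 mM without passing (adjusted p = 0.138, log2 0.30, SE 0.13). It passed with only the 6 libraries compared (0.0413) and without 1 mM replicate 3 (0.0395), with 0.329 the highest of 17. The lectin gene os9 (ENSDARG00000020301) did not pass (adjusted p = 0.422, log2 0.17, SE 0.13).

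Between the doses, 11 of the 34 genes were higher at 10 mM than at 1 mM and 1 was lower, where 9.39% of all tested genes were higher and 9.41% lower. The median log2 difference was 0.36, beside -0.04 over all tested genes. The 11 were atf6, 4 chaperone genes (hyou1, dnajb11, dnajc3a, manf), pdia6, sec63 and 4 degradation genes (derl1, derl2, syvn1, sel1l), and the 1 lower was creb3l3a (adjusted p = 0.0264, log2 -0.93, SE 0.26). The calls of atf6, dnajc3a (adjusted p = 0.00958, log2 0.72, SE 0.17) and sec63 held in each of 17 alternatives. The other 9 calls, that of creb3l3a included, were all lost without 1 mM replicate 2 (adjusted p 0.0515 to 0.148). Leaving out another library took them to 0.199 at most. Most of the 9 were lost in further alternatives too. Of 17 alternatives, syvn1, derl1 and derl2 lost the call in 11 each and pdia6 in 9. The calls of hyou1, manf and creb3l3a were lost in 6 each, that of sel1l in 4 and that of dnajb11 in 1. The count of 11 ranged from 3 to 13 with single libraries left out, was 3 without 1 mM replicate 2 and was 5 with only the 6 libraries compared. It was 4 or 5 without 10 mM replicate 2, 10 mM replicate 3 or 1 mM replicate 1, and 7 without 10 mM replicate 1 or vehicle replicate 2 or 3. The count of 1 lower became 0 without 1 mM replicate 1 or 2 or any 10 mM library. The 3 comparisons share libraries, so their values are set side by side and their overlap is not read as a result.

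Beyond these genes, 161 further names of ER function were listed, of which 143 matched 142 different genes, and 138 of these were tested. These lists too were chosen with earlier results of these data known, so their shares do not test them as a group. At 10 mM 30 of the 138 rose and 2 fell, beside 9.74% and 7.43% of all tested genes, and their median log2 change was 0.20 beside -0.03. At 1 mM 2 of the 138 rose and 0 fell by edgeR (median 0.05), 1.45% higher where 0.889% of all tested genes were. DESeq2 gave 3 higher and 0 lower at 1 mM, beside 2.5% and 0.519% of all tested genes, and an unadjusted p under 0.05 gave 9 and 3, beside 7.59% and 4.01%. These 1 mM counts are near the shares over all genes. The 30 became 19, 16 and 17 without vehicle replicate 1, 2 and 3 and 19 without 10 mM replicate 1. The 2 lower became 1 without vehicle replicate 2, 10 mM replicate 1 or 10 mM replicate 3.

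**Figure D4:**
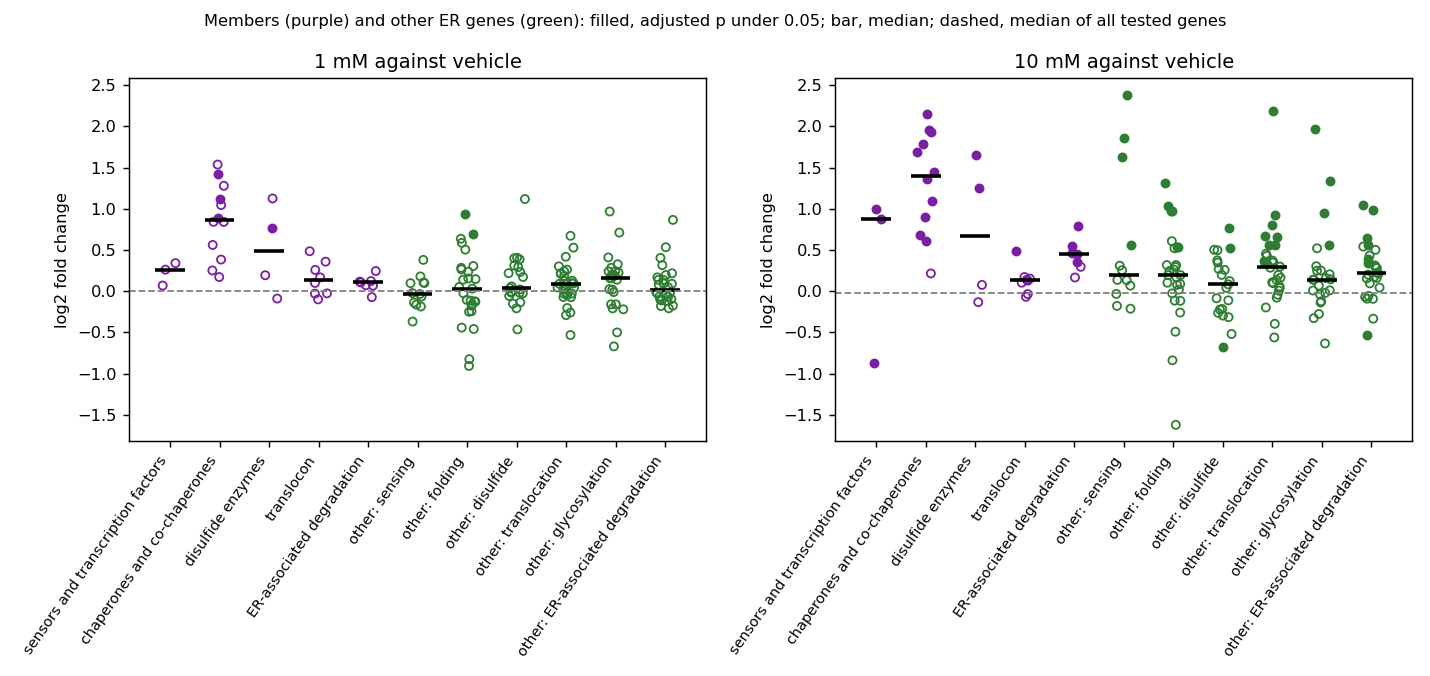
Log2 fold change against vehicle (vertical axis) at 1 mM (left) and 10 mM (right) for each role class of the 34 genes (purple) and of the 138 other ER genes tested (green), with the class median as a bar and the median of all tested genes dashed. The chaperone medians, 0.86 and 1.40, are the highest of the 11 classes at each dose.

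In the signalling list 4 of 12 tested genes rose at 10 mM, 33.3% beside 9.74% of all tested genes. The 3 with the smallest p are named here. Of other listed genes that act with Perk, atf4a passed (adjusted p = 0.0373, log2 0.56, SE 0.17), while atf4b (adjusted p = 0.334, log2 0.26, SE 0.16) and ddit3 (adjusted p = 0.376, log2 0.31, SE 0.22) did not. The phosphatase subunit genes ppp1r15b (ENSDARG00000068128) and ppp1r15a (ENSDARG00000069135) reverse the translation block that Perk imposes. Levels of ppp1r15b were 1.64, 3.02 and 0.996 CPM in vehicle, 2.01, 1.81 and 1.21 CPM at 1 mM and 12.5, 7.56 and 9.44 CPM at 10 mM, with 1 mM inside the vehicle range and 10 mM above it (adjusted p = 0.000544, log2 2.38, SE 0.35). For ppp1r15a they were 13.5, 14.8 and 26.3 CPM in vehicle, 16.9, 26.4 and 27.9 CPM at 1 mM and 27.2, 47.4 and 93.8 CPM at 10 mM (adjusted p = 0.0109, log2 1.62, SE 0.38). That call was lost in turn without vehicle replicate 1, vehicle replicate 2 and 10 mM replicate 3, at 0.0536 to 0.0599, with 1.3e-06 the lowest of 17 alternatives. The pseudokinase gene trib3 (ENSDARG00000016200), a target of Atf4, stood at 10.6, 14.7 and 28.2 CPM in vehicle, at 11.2, 22.6 and 23.6 CPM at 1 mM and at 38.8, 45.6 and 110.0 CPM at 10 mM, replicate 3 being far the highest. Its rise at 10 mM (adjusted p = 0.00956, log2 1.86, SE 0.43) was lost without vehicle replicate 2 (0.0534, lowest 4.3e-07). Without 10 mM replicate 3 the log2 change was 1.24 for trib3 (adjusted p = 0.0489) and 1.04 for ppp1r15a (adjusted p = 0.0536). For each of these 3 genes the 1 mM group missed the threshold (adjusted p 0.773 to 0.964).

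Of 27 further folding genes 6 rose at 10 mM, 22.2% beside 9.74% of all tested genes. The calreticulin copy calr3b (ENSDARG00000102808) stood at 15.3, 14.05 and 20.04 CPM in vehicle, at 25.98, 39.4 and 29.01 CPM at 1 mM and at 33.8, 41.6 and 47.9 CPM at 10 mM, every treated library above vehicle. It rose at 10 mM (adjusted p = 0.000503, log2 1.32, SE 0.19) and at 1 mM (adjusted p = 0.0402, log2 0.93, SE 0.19). The copy calr3a (ENSDARG00000103979), chosen after its values were seen, rose as well, by a log2 of 0.54 at 10 mM (SE 0.14, adjusted p = 0.0205) and 0.69 at 1 mM (SE 0.14, adjusted p = 0.0435). With calr, all 3 calreticulin genes were thus higher at both doses, and reads that they share could not be separated. The 1 mM calls of calr3b and calr3a were lost without any vehicle library, without 1 mM replicate 2 and with only the 6 libraries compared (adjusted p 0.0623 to 0.239). That of calr3b was lost also with the filter of 5 CPM and without 10 mM replicate 2 (0.0566 and 0.0648). That of calr3a was lost also without 1 mM replicate 3 and without 10 mM replicate 1 or 3 (0.0519 to 0.071). Its 10 mM call was lost without the first or second vehicle library or the second 10 mM library (0.0566 to 0.11). The glucosidase II subunit gene prkcsh (ENSDARG00000004470), which readies glycoproteins for calreticulin, went from 17.95 ± 3.76 to 36.9 ± 3.14 CPM at 10 mM (adjusted p = 0.00526, log2 1.04, SE 0.22). The gene nucb2b (ENSDARG00000036291), of a calcium-binding protein, went from 7.64 ± 1.26 to 14.99 ± 2.56 CPM (adjusted p = 0.00281, log2 0.97, SE 0.18).

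Protein entry outside the listed translocon genes had 8 of 29 tested genes higher at 10 mM, 27.6% beside 9.74% of all tested genes. Signal peptide peptidase, which cuts spent signal peptides in the membrane, is encoded by hm13 (ENSDARG00000037846), at 24.5, 25.2 and 20.9 CPM in vehicle, 20.3, 25.9 and 37.4 CPM at 1 mM and 109, 100.5 and 111 CPM at 10 mM. The 10 mM libraries lay far above all others and close together (4.54-fold over vehicle, adjusted p = 2.09e-05, log2 2.18, SE 0.19). The gene of the signal recognition particle receptor, srpra (SRPRA in the table, ENSDARG00000061124), rose from 63.7 ± 4.18 to 121 ± 4.24 CPM (adjusted p = 0.000203, log2 0.92, SE 0.12). The translocating chain-associated protein gene tram1 (ENSDARG00000019137) rose from 20.02 ± 0.706 to 34.8 ± 3.105 CPM (adjusted p = 0.000755, log2 0.80, SE 0.12). The other 21 of the 29 did not pass at 10 mM. Among them, chosen after their values were seen, were sec61a1 of the Sec61 channel (log2 0.04, SE 0.15, adjusted p = 0.898) and tram2 (log2 -0.56, SE 0.26, adjusted p = 0.17).

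In N-glycosylation 4 of 23 genes rose at 10 mM, 17.4% beside 9.74% of all tested genes. The mannosyltransferase gene alg2 (ENSDARG00000070399) stood at 1.42, 1.09 and 1.54 CPM in vehicle, at 2.78, 2.63 and 2.54 CPM at 1 mM and at 4.20, 5.76 and 5.97 CPM at 10 mM, with no overlap between the 3 groups (log2 at 10 mM 1.97, SE 0.23, adjusted p = 0.000119). At 1 mM it missed the threshold (log2 0.97, adjusted p = 0.0792). The gene of the first enzyme of the pathway, dpagt1 (ENSDARG00000061061), rose from 6.30 ± 0.664 to 15.9 ± 1.70 CPM at 10 mM (adjusted p = 0.000809, log2 1.34, SE 0.21). The oligosaccharyltransferase subunit gene stt3b (ENSDARG00000001890) rose from 35.25 ± 3.76 to 51.8 ± 3.92 CPM (adjusted p = 0.00865, log2 0.56, SE 0.13), lost without vehicle replicate 3 (0.0545, lowest of 17 alternatives 0.000659).

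Among further degradation genes 6 of 26 rose at 10 mM (23.1%) and 1 fell, beside 9.74% and 7.43% of all tested genes. The segregase p97, which pulls proteins out of the membrane, is encoded by vcp (ENSDARG00000020008), at 87.6, 89.4 and 82.7 CPM in vehicle, 86.3, 96.1 and 103 CPM at 1 mM and 182, 167 and 189 CPM at 10 mM, where all 3 libraries lay above all others (2.07-fold, adjusted p = 9.63e-05, log2 1.05, SE 0.12). Its membrane recruiter gene faf2 (ENSDARG00000052374) rose from 17.95 ± 1.59 to 28.1 ± 0.809 CPM (adjusted p = 0.0041, log2 0.65, SE 0.13). The gene herpud2 (ENSDARG00000021033) rose with a log2 of 0.56 (SE 0.14, adjusted p = 0.0146). That call was lost when vehicle replicate 2, vehicle replicate 3 or 10 mM replicate 1 was left out (0.0676 to 0.0698, lowest of 17 alternatives 0.0017). The 1 that fell was erlin1 (ENSDARG00000021991), chosen after its values were seen (adjusted p = 0.0147, log2 -0.53, SE 0.13). It was lost when vehicle replicate 2, 10 mM replicate 1 or 10 mM replicate 3 was left out (0.0535 to 0.0725, lowest 0.00338).

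Of the 21 further disulfide genes 2 were higher (9.52%) and 1 was lower at 10 mM, close to the 9.74% and 7.43% of all tested genes. The thioredoxin-related membrane protein gene tmx2b (ENSDARG00000007786) rose from 17.5 ± 0.223 to 29.9 ± 3.135 CPM (adjusted p = 0.00121, log2 0.77, SE 0.13). The gene txndc11 (ENSDARG00000101291) rose from 14.4 ± 1.20 to 20.7 ± 2.68 CPM (adjusted p = 0.0217, log2 0.53, SE 0.14). It was lost when vehicle replicate 1 or 3 was left out, or 10 mM replicate 1 or 2 (0.0629 to 0.103, lowest of 17 alternatives 0.00622). The sulfhydryl oxidase gene qsox1 (ENSDARG00000039459), whose product forms disulfides in the secretory pathway, stood at 399, 339.8 and 342 CPM in vehicle, at 415, 436 and 407 CPM at 1 mM and at 237, 230.2 and 206 CPM at 10 mM. All 10 mM libraries lay below all others (log2 -0.68 against vehicle, SE 0.13, adjusted p = 0.00262).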

How the data were processed

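The authors deposited a table of raw counts per gene, not normalised. Per the submitters' processing notes they used HISAT2 and featureCounts on build GRCz11. The versions, annotation release, strand setting and treatment of multi-mapping reads are not stated in the sources used here. Of counts from 1 to 20, 75.2 to 82.9% were even, so both reads of a pair were mostly counted. Total counts were 29993109 to 41300673.

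Genes passed filterByExpr (minimum count 10, minimum total 15). With TMM scaling, all 9 libraries entered 1 fit that gave each group its own mean, and pairs of groups were compared with edgeR's quasi-likelihood test (edgeR 4.0.16, R 4.3.3), two-sided, Benjamini-Hochberg adjusted over 16766 genes with a threshold of 0.05. The SE is the log2 fold change over the square root of F. CPM use TMM-scaled library sizes. Levels are not compared between genes, since no transcript lengths were used.

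Whether replicates were separate animals is not in the labels, so p-values measure the spread between these libraries, which may be technical. Among the 38 genes first listed, library values are given for every sensor and transcription factor, and for those that fell or passed at 1 mM. In each other class they are given for the 4 genes with the smallest p at 10 mM. Of the other ER lists, the 3 genes with the smallest p at 10 mM are named. Members and lists were chosen with earlier results of these data known. Of the 143 matched names of other ER genes, 2 of which are the same gene, 131 matched the table exactly, 8 in other letter case and 4 through the Ensembl name table. Alternatives were DESeq2 (1.42.0) size factors and test, no filter, 5 CPM in 3 libraries, the 6 libraries compared, a block for the replicate number, a fit without 31 mitochondrial and abundant genes, counts halved, and each library left out. Calls that the block changed are listed at the end, not beside each gene. The fit was tested on simulated data with known changes. Counts were drawn from the fit's own model, with a spread set by the trend over expression level. For each fold, 100 genes above 1 CPM were changed. Of 2-fold changes it recovered 68% at 10 mM against vehicle, 60% at 1 mM against vehicle and 64% between the doses. Of 4-fold changes it recovered 92%, 95% and 94%, and 3.03%, 2.52% and 3.07% of its calls were false. Smaller changes, a spread particular to each gene and a library that stands apart were not simulated. These shares therefore do not measure recovery or false calls in the real libraries. Sequences and xbp1 splicing were not analysed here.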

Additional observations from a re-analysis of the deposited data

How the results depend on the processing

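The 21 genes higher at 10 mM ranged from 13 to 22 with single libraries left out and the 1 lower from 0 to 1. The 4 higher at 1 mM ranged from 0 to 8, and became 8 with the DESeq2 test and 9 with no count filter. Between the doses the 11 higher ranged from 3 to 13 and the 1 lower from 0 to 1, with 5 higher and 0 lower with only the 6 libraries compared. The 30 other ER genes higher at 10 mM ranged from 16 to 44 and the 2 lower from 1 to 3. The causes were not tested, though a left-out library also leaves fewer samples.

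Of the 22 genes called at 10 mM, 13 kept their call in every alternative that tested them (17, or 16 for creld2), as did 0 of 4 at 1 mM and 3 of 12 between the doses. Signs turned for 4 uncalled genes at 10 mM with 1 library left out. Their log2 differences ranged from -0.0142 to 0.3809 for dnajb9a (lowest without vehicle replicate 3), from -0.0557 to 0.1893 for pdia3 (lowest without 10 mM replicate 1), from -0.21 to 0.0455 for sec61b (above 0 without vehicle or 10 mM replicate 3) and from -0.1497 to 0.1064 for sec61g (above 0 without vehicle replicate 1 or 10 mM replicate 3). Same-numbered libraries did not deviate together over all genes (correlation -0.111 to 0.056). The labels do not say whether the numbers pair the libraries, and with 3 libraries per group these correlations cannot settle it. With the replicate number as a block, 18 genes were higher at 10 mM, 4 at 1 mM and 7 between the doses, and 23 other ER genes were higher at 10 mM. The block ended the 10 mM calls of dnajb9b, herpud1 and sel1l (adjusted p 0.0737, 0.0532 and 0.0896), the 1 mM call of calr3a (0.0955) and, between the doses, those of hyou1, manf, syvn1, derl1 and derl2 (0.0553 to 0.0843), where xbp1 passed (0.0351). Counting the 4 genes matched by other names, chosen after seeing the data, gave 22, 4 and 12 higher. Lane 8 held 1 library, so lane and group cannot be told apart for it, and within lane 7 the 10 mM count was 17 higher and 0 lower. The lowest counts were those of dnajb9a, dnajb9b and creld2, at 17 to 140 per library.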
